A study of Mus musculus with 36 samples.

Results

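The 6 genes described here, Nr6a1, Gdf11, Lin28, Lin28b, Acvr2b and Tgfbr1, encode regulators of the passage from trunk to tail formation in the mouse embryo. They were chosen by name, as every probe of the deposited expression table that carries 1 of these symbols. The table held 13 such probes, of which 12 were detected on at least 1 array and tested; the 6 genes stand among 15556 gene symbols with a tested probe. Detected means a detection p below 0.01, where the detection p compares a probe with the negative control probes of its array.

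The study profiled 16 dissected regions of wildtype MF1 mouse embryos on 36 Illumina MouseWG-6 v2.0 arrays. Except for an anterior region at E7.5, they lay in and around the tissue at the posterior end, from which the body axis grows. At E7.5 the regions were A (anterior, 3 arrays), P (posterior, 2 arrays) and PP (proximal posterior, 2 arrays). At E8.5 they were RN, the rostral part of the node (2 arrays), NSB, the node-streak border (3 arrays), CLE, the caudal lateral epiblast (3 arrays), and St1 and St5, the rostral and caudal ends of the primitive streak (2 arrays each). From E9.5 on they were CNH, the chordoneural hinge of the tail bud, at E9.5, E10.5, E11.5 (3 arrays), E12.5 and E13.5, and P-CNH, the tissue just behind the hinge, at E9.5, E10.5 and E11.5, with 2 arrays each unless stated. Each array carried RNA from its own pool of dissected pieces, so a p-value measures the spread between pools and not between embryos.

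The arrays were run in 3 batches of 12. Batch 1 held every array of the E10.5 tissues and of St1, St5 and RN, together with NSB replicates 1 and 2, and its arrays detected 15481 to 16256 probes each, with a median of 15875. Batch 2 arrays detected 11062 to 15388 probes (median 13803.5) and Batch 3 arrays 10814 to 16241 (median 14697). Detection was poorest on E13.5 CNH replicate 2 (10814 probes) and E8.5 CLE replicate 1 (11062). The step from E8.5 to E10.5 can therefore be read inside Batch 1, whereas only NSB replicate 3, in Batch 3, ties Batch 1 to the others. Unless stated, E8.5 values set beside E10.5 values are those of Batch 1 arrays only.

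These genes act at several levels. GDF11 is a secreted ligand of the TGF-beta family that binds the type II receptor ACVR2B, which then activates the type I receptor TGFBR1 (ALK5) and, through it, SMAD2 and SMAD3; loss of GDF11 or of these receptors delays the switch from trunk to tail and shifts the hindlimbs and sacrum backwards. NR6A1, also called germ cell nuclear factor, is an orphan nuclear receptor that mostly represses its targets and is needed for trunk development. LIN28A (symbol Lin28 on the array) and LIN28B are RNA-binding proteins that block the maturation of let-7 microRNAs, and they affect the length of the tail and the timing of development.

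Nr6a1, the orphan receptor, was bright at E8.5 and close to background at E10.5. Its deposited intensity in Batch 1 was 10489.5 and 11111 in RN, 12092 and 12631 in NSB, 12579 and 13387 in St1, and 7829 and 5619 in St5. At E10.5 it was 68.6 and 78.4 in CNH and 70.1 and 70.1 in P-CNH, and only CNH replicate 2 (78.4) passed the detection threshold. All 8 Batch 1 arrays of E8.5 lay above all 4 arrays of E10.5 with a wide gap, and the caudal end of the streak, St5, was the lowest of these E8.5 regions.

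In the fit of limma to all 36 arrays, with region and batch as terms, a gene was called when its adjusted p was at most 0.05 and its change at least 1.5-fold. Nr6a1 fell between NSB and E10.5 CNH by 7.95 log2 units (SE 0.345, 95% interval -8.67 to -7.24, adjusted p 2.82e-13, 2 arrays against 2). Between St1 and E10.5 P-CNH it was also called lower (adjusted p 1.94e-13). Neither P-CNH array detected it, so this second fold is given as a bound, set by the background level: at least 208-fold lower. Such a bound compares normalised means, carries no sampling error and can change with the processing. Of 21712 probes tested, the Nr6a1 probe had the most negative fitted difference from NSB to CNH. The same held between the mean of the 4 Batch 1 regions of E8.5 and the mean of both E10.5 regions (-7.80 log2 units, limma adjusted p 2.11e-17). Only 1 of the 4 E10.5 arrays detected the probe, so these ranks and the fitted sizes of -7.95 and -7.80 rest in part on background values. In these bulk pools, fewer cells of a type and less RNA per cell cannot be told apart.

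NR6A1 binds DNA at direct repeats of the half-site AGGTCA, and Pou5f1, which encodes the pluripotency factor OCT4, is its best-known repressed target. The windows below are shown because Nr6a1 and Pou5f1 dropped together across the same arrays. They are the 250 bases before an annotated start, from RefSeq on GRCm38.p6, with each match to AGGTCA in capitals; a match on the other strand reads TGACCT.
Nr6a1, second annotated start, chr2:38784516-38784765, minus strand: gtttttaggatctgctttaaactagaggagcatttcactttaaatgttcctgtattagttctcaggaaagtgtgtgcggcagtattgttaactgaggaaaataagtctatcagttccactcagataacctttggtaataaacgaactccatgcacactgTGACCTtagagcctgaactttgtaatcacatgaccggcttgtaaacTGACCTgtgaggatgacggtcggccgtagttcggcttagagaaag
Pou5f1, chr17:35505782-35506031, plus strand: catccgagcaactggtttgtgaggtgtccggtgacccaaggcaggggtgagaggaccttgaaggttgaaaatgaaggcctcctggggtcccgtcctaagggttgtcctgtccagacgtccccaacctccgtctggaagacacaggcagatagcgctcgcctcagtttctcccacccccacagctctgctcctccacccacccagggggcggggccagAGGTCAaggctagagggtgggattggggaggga
The printed Nr6a1 window holds 2 matches and the printed Pou5f1 window 1. The search was for single half-sites. The 2 matches in the Nr6a1 window lie apart, so neither printed window holds 2 adjacent exact matches. Binding of NR6A1 was not tested. The windows at the other Nr6a1 start (chr2:38926462-38926711) and at the other Pou5f1 start (chr17:35508557-35508806) hold none, nor do those of the other 5 members. Of 32851 windows of this length, 4607 (14%) hold at least 1 match and 446 (1.36%) hold 2 or more. Of the 6 symbols, 5 matched RefSeq directly and Lin28 matched as a synonym of Lin28a.

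Pou5f1 showed nearly the same profile as Nr6a1. Its list probe read 2587 and 2962 in RN, 2902 and 3314 in NSB, 4017 and 4868 in St1, and 2330.0 and 1957 in St5. At E10.5 it read 77.2 and 84.5 in CNH and 85.9 and 103 in P-CNH, again without overlap between the stages. It fell by 5.94 log2 units from NSB to CNH (limma adjusted p 4.74e-12) and by 6.11 from St1 to P-CNH (6.21e-12).

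The likeness was also measured as Pearson's r over the 12 Batch 1 arrays, between Nr6a1 and the 5328 other probes that passed a minimum range of 1 log2 unit and detection on at least 6 of these arrays. These correlations carry the step between stages, so they rest largely on 2 clusters of arrays and are given as a description. The closest probe was a second one for Pou5f1 (r 0.998), which ran from 1204 to 2908 at E8.5 and from 73.3 to 76.8 at E10.5, where no array detected it. Prtg, which encodes protogenin, a cell surface protein of the immunoglobulin superfamily, followed with r 0.997 (1025 to 2072 at E8.5, 100.2 to 118 at E10.5), and then F11r, which encodes the junctional adhesion molecule JAM-A (r 0.996, 504 to 803 against 73.7 to 84.9, again undetected at E10.5). Nr6a1 itself was detected on 1 of the 4 arrays of E10.5, so the order of these probes rests in part on background values. The most opposite profile was that of Hoxd3, an anterior Hox gene, with r -0.996, from 140.0 to 195 at E8.5 up to 442 to 642 at E10.5.

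**Figure D1:**
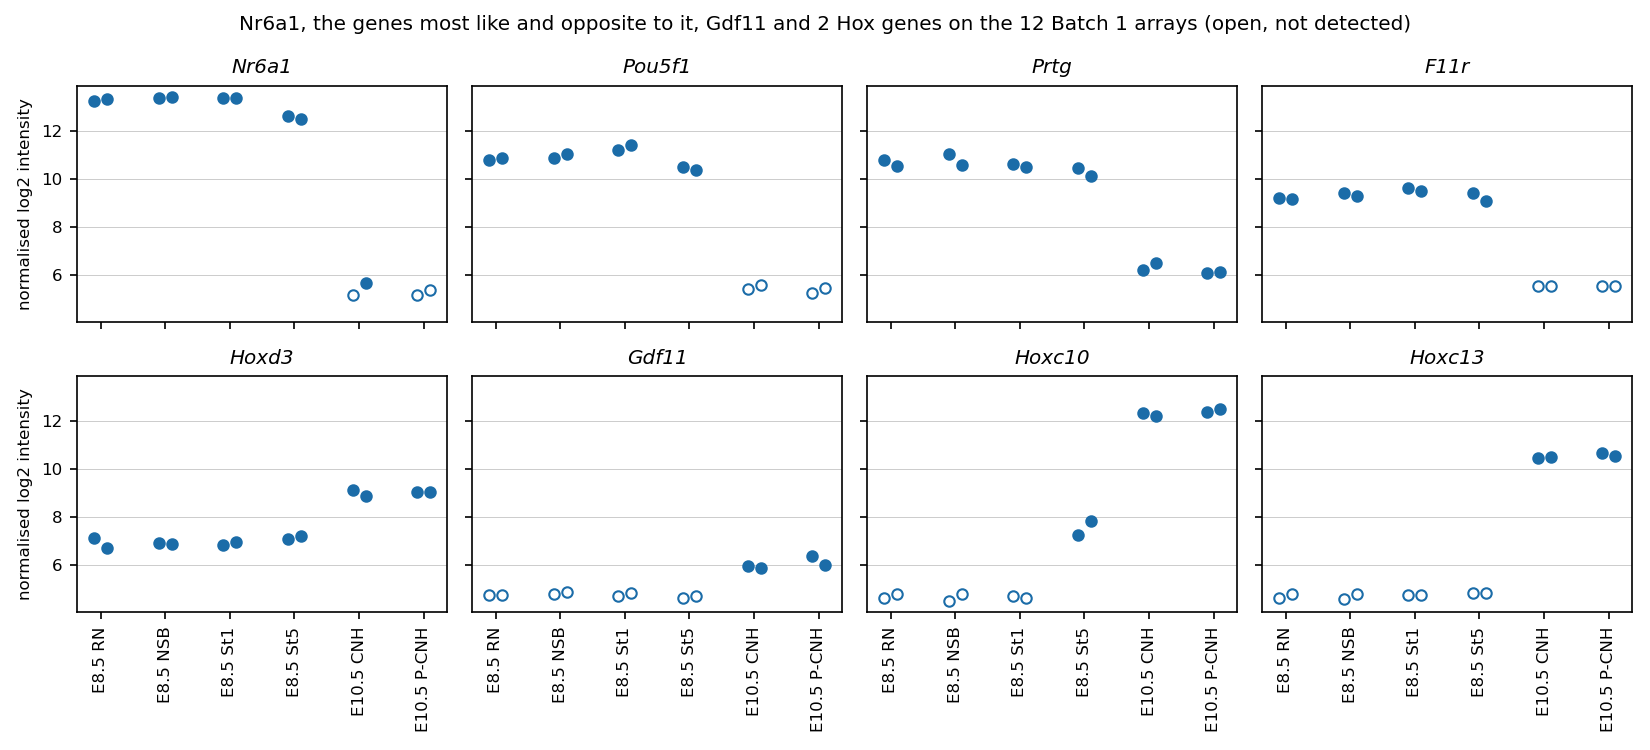
Normalised log2 intensity of Nr6a1, the 3 probes most like it (Pou5f1, Prtg, F11r), the most opposite probe (Hoxd3), Gdf11, Hoxc10 and Hoxc13 on the 12 Batch 1 arrays, with regions of E8.5 on the left and of E10.5 on the right. Nr6a1 spans 12.49 to 13.41 at E8.5 and 5.16 to 5.68 at E10.5.

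Around Nr6a1, the list of trunk-stage pluripotency genes moved down. Of its 8 genes, 5 fell and none rose from NSB to CNH, with a list median of -1.53 log2 units beside -0.01 over all tested probes: besides Pou5f1 these were Klf5 (-3.13), Zscan10 (-2.90), Nanog (-1.60) and the DNA methyltransferase Dnmt3b (-1.47). From St1 to P-CNH 6 of 8 fell (median -1.84 beside -0.03), with Utf1 as the sixth; at least 1.27-fold lower, it was undetected at E10.5. Of all probes, 3.60% and 3.13% were called lower. With Batch 1 alone 6 of the 8 fell in each, where 2047 and 2242 of 21712 probes were called lower. The study had already listed Pou5f1, Klf5, Zscan10 and Dnmt3b as falling between E8.5 and E10.5. This and the other gene lists were chosen with earlier results of these data known, so their counts are a description and not independent support. Of 7 tested orphan receptors and corepressors related to Nr6a1, 0 were called in either comparison by limma, and 0 had an unadjusted p under 0.05 (medians 0.22 and -0.04). With 7.14% and 7.07% of all probes called in these comparisons, such a count is near the background.

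Gdf11, the ligand, was detected on none of the 8 Batch 1 arrays of E8.5 and on all 4 of E10.5, at a low level. It read 51.3 and 50.8 in RN, 54.7 and 56.7 in NSB, 49.6 and 57.1 in St1, and 50.3 and 48.0 in St5. At E10.5 it read 105 and 85.5 in CNH and 132 and 93.1 in P-CNH. The E10.5 arrays all lay above the E8.5 arrays of Batch 1, and beyond them the probe was detected on just 1 other array of the 36, E11.5 P-CNH replicate 2 (141).

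Gdf11 rose from NSB to CNH by 1.10 log2 units (SE 0.251, 95% interval 0.58 to 1.62, limma adjusted p 0.00594), at least 1.19-fold. From St1 to P-CNH it rose at least 1.496-fold (adjusted p 0.000550), and stage against stage by 1.31 (adjusted p 1.07e-06), at least 1.35-fold. No E8.5 array detected the probe, so the fitted sizes rest on background and are not given as folds. The bounds depend on the offset of 16 added to the intensities and carry no sampling error. The call between NSB and CNH was lost without NSB replicate 1 (1.06, adjusted p 0.0670) and without E10.5 CNH replicate 1 (1.05, adjusted p 0.0697). With an offset of 100 added to the intensities instead of 16, none of the 3 Gdf11 differences reached 1.5-fold (0.36, 0.50 and 0.44), nor did that from NSB to CNH without background correction (0.54).

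The receptors that receive this signal were detected on every array. Acvr2b, the type II receptor, ran from 6419 to 8962 (median 8132) on the 8 Batch 1 arrays of E8.5 and from 5933 to 7588 (median 6048) on the 4 of E10.5, so the stages overlapped. Tgfbr1, the type I receptor, ran from 3479 to 5127 (median 4135) and then from 4549.8 to 7058 (median 5005), also with overlap. Neither was called between NSB and CNH, where Acvr2b differed by -0.41 log2 units (95% interval -0.88 to 0.05, adjusted p 0.442) and Tgfbr1 by 0.47 (adjusted p 0.338), nor between St1 and P-CNH (-0.21, adjusted p 0.895, and 0.14, adjusted p 0.986). These values come from the Tgfbr1 probe ILMN_2602711; the probe ILMN_2980532 was detected on 26 arrays and ILMN_2708965 on 1, and the fourth, ILMN_1214505, was detected on none and not tested. The 3 tested Tgfbr1 probes differed from NSB to CNH by 0.11 to 0.79 log2 units and none was called in the 36-array fit. In the fit to Batch 1 alone, ILMN_2980532 rose from NSB to CNH (0.75, adjusted p 0.00117) and stage against stage (0.62, adjusted p 7.53e-05), with deposited values of 269.7 to 395 at E8.5 and 409 to 590.1 at E10.5, which did not overlap; from St1 to P-CNH it stayed under 1.5-fold (0.55, adjusted p 0.00702).

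Of 8 other receptors of the family tested, 2 rose and 1 fell from NSB to CNH (median 0.51), where 7.14% of all probes were called, and the counts from St1 to P-CNH were also 2 and 1 (median 0.49; 7.07% of all probes). With Batch 1 alone they were 3 higher and 1 lower, and 4 higher and 1 lower, beside 20.1% and 21.7% of all probes. Tgfbr2, the type II receptor for TGF-beta ligands, read 163 and 147 in NSB and 372 and 326 in CNH, and rose by 1.47 log2 units (adjusted p 0.00202). Acvr1, a type I receptor that can signal for BMPs, rose by 1.10 (adjusted p 0.0203), and Tgfbr3, the coreceptor betaglycan, fell by 1.55 (adjusted p 0.00325). In St5 Tgfbr2 already read 318 and 309.

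Among the ligands related to GDF11 and the proteins that process or bind it, 4 of 7 tested genes fell and none rose in each of both comparisons in the 36-array fit (medians -2.26 and -1.08), beside 3.60% and 3.13% of all probes called lower. With Batch 1 alone, 5 fell and 1 rose from NSB to CNH, and 4 fell and 1 rose from St1 to P-CNH, beside 20.1% and 21.7% of all probes called, 2047 and 2242 of them lower. Fst, which encodes follistatin, an extracellular protein that binds activins and GDF11, read 2849 and 2591 in NSB and 4531 and 4937 in St1, but 89.8 and 73.3 in CNH and 73.7 and 64.9 in P-CNH. Its fall was 5.77 log2 units from NSB to CNH (limma adjusted p 2.05e-09) and at least 86.8-fold from St1 to P-CNH. The study had already listed Fst as falling between these stages. Wfikkn1, which encodes another GDF11-binding protein, changed by -3.14 and -2.44 log2 units, and Gdf1, which encodes a ligand that partners NODAL, by -2.26 and -1.08. While Gdf11 rose, these 3 genes were lower at E10.5.

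Nodal, the TGF-beta family ligand of the node and streak, started from different levels in the regions of E8.5. It read 1610.1 and 1649 in RN and 1547 and 1704 in NSB, but 174 and 165 in St1 and 109.7 and 76.8 in St5. At E10.5 it read 102 and 86.7 in CNH and 67.9 and 66.2 in P-CNH. It fell by 4.74 log2 units from NSB to CNH (adjusted p 4.74e-12) and at least 2.65-fold from St1 to P-CNH (adjusted p 1.66e-05), where it reached background, so the sizes of these falls cannot be compared. Among the Smad proteins and their corepressors, which act inside the cell, 0 of 8 tested genes were called by limma from NSB to CNH, where 2 had an unadjusted p under 0.05 (median 0.36), and 1 from St1 to P-CNH (median 0.61), where Skil, a corepressor, rose by 1.71 (adjusted p 0.000901). These counts are near the 7.14% and 7.07% of all probes. With Batch 1 alone 4 of 8 were called higher in each, beside 2314 and 2462 of 21712 probes called higher (20.1% and 21.7% called in either direction).

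In Batch 1, Lin28 was high at both stages and lower at E10.5. The representing probe (ILMN_1220027) read 2446 and 3328 in RN, 2968 and 3969 in NSB, 3139 and 4735 in St1, and 5027 and 3418 in St5. At E10.5 it read 983 and 1093 in CNH and 1053 and 1231 in P-CNH, all below the lowest E8.5 array of this batch. Outside it NSB replicate 3 read 469, while after normalisation (10.42 log2 units) it lay above the highest E10.5 array (10.32). The other Lin28 probes ran in the same direction: ILMN_2992814 from a median of 5420 (3837 to 6402) to 1598 (1080 to 1935), ILMN_2521653 from 486 (314 to 697) to 213 (171 to 256), and ILMN_2525870 from 441 (355 to 803) to 170 (138 to 227).

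Lin28b, the second family member, changed less within Batch 1. It read 667 and 888 in RN, 791 and 749 in NSB, 792.5 and 968 in St1, and 702 and 670.3 in St5. At E10.5 it read 462 and 430.1 in CNH and 572 and 597 in P-CNH. The deposited values of the stages did not overlap in this batch, while after normalisation the highest E10.5 array (9.25 log2 units) passed the lowest Batch 1 array of E8.5 (9.20). Outside it NSB replicate 3 read 180.1, below all 4 arrays of E10.5, while after normalisation (8.73) it lay above the lowest of them (8.59). The second Lin28b probe (ILMN_1217412) was detected on 1 array of 36, St1 replicate 2 (86.5). It was not called in the 36-array fit, and in the fit to Batch 1 alone it was called lower from St1 to P-CNH (-0.73, adjusted p 0.00386), where neither P-CNH array detected it.

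The molecules on which LIN28 proteins act are shown here for orientation, since the arrays did not measure mature let-7. The 8 mature let-7 strands of the 5p arm in the RefSeq table share 1 seed (bases 2 to 8, in capitals), and 3 of them are given.
let-7a-5p: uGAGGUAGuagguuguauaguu
let-7g-5p: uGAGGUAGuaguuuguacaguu
let-7i-5p: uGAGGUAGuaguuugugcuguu
LIN28 binds the terminal loop of the let-7 precursor at a GGAG motif, in capitals below.
Mirlet7g hairpin, chr9:106178840-106178927, plus strand: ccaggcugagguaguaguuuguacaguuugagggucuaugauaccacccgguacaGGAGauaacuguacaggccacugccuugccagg
Mirlet7i hairpin, chr10:122985640-122985724, minus strand: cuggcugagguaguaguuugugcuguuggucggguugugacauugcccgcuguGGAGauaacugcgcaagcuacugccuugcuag
Of 10 let-7 hairpins of the table with both arms placed, 8 hold GGAG between the arms.

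In the fit to all 36 arrays, Lin28 differed from NSB to CNH by -1.70 log2 units (SE 0.894, 95% interval -3.56 to 0.15, adjusted p 0.417) and from St1 to P-CNH by -1.73 (adjusted p 0.371), and neither passed. Over all 12 Batch 1 arrays, stage against stage, it fell by 1.69 log2 units (adjusted p 0.0339), and all 4 of its probes were called; this call was lost without a batch term (-1.59, adjusted p 0.0516) and without the detection filter (-1.69, adjusted p 0.0827). The error of this fit is pooled over all regions, and in Batches 2 and 3 Lin28 replicates lay far apart: E8.5 CLE read 293, 143 and 5577. With Batch 1 fitted alone, Lin28 fell from NSB to CNH (-1.74, SE 0.246, adjusted p 0.000299) and from St1 to P-CNH (-1.77, adjusted p 0.000266). The stage call of Lin28 in the 36-array fit was lost in 9 of 36 fits that each left out 1 array; the highest adjusted p among them came without E10.5 P-CNH replicate 1 (-1.58, adjusted p 0.134) and without E10.5 CNH replicate 1 (-1.58, adjusted p 0.134). The other arrays that ended it were E10.5 CNH replicate 2 (-1.80, adjusted p 0.0763), E10.5 P-CNH replicate 2 (-1.81, 0.0745), RN replicate 2 (-1.63, 0.0639), St1 replicate 2 (-1.64, 0.0631), NSB replicate 2 (-1.65, 0.0617), St5 replicate 1 (-1.67, 0.0583) and St5 replicate 2 (-1.72, 0.0508).

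For Lin28b the 36-array differences were -0.85 (SE 0.332, adjusted p 0.171) and -0.63 (adjusted p 0.388), and the stage comparison passed with a fall of 0.66 log2 units (adjusted p 0.0247). In the fit to Batch 1 alone it fell by 0.83 from NSB to CNH (SE 0.183, adjusted p 0.00561) and by 0.63 from St1 to P-CNH (adjusted p 0.0219). Its stage call in the 36-array fit ended without E10.5 P-CNH replicate 1 (-0.59, adjusted p 0.133), E10.5 CNH replicate 1 (-0.60, 0.121), RN replicate 2 (-0.60, 0.0594), St5 replicate 2 (-0.62, 0.0544) or E10.5 CNH replicate 2 (-0.73, 0.0508). It also ended with the BeadChip as a random block (-0.58, adjusted p 0.227) and without a batch term (-0.60, 0.602), and the fall was just under 1.5-fold with an offset of 100 or without background correction (-0.58 in each). A fall of this size is close to the 1.5-fold limit, which is 0.58 log2 units.

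The list around the LIN28 proteins holds genes that process let-7 or are its known targets. Of 16 tested, 0 were called by limma from NSB to CNH, where 1 had an unadjusted p under 0.05 (median -0.02), and 1 rose and 1 fell from St1 to P-CNH (median -0.06), beside 7.14% and 7.07% of all probes. In the fit to Batch 1 alone these were 1 higher and 1 lower, and 2 higher and 4 lower, beside 20.1% and 21.7%. Hmga2, a classic let-7 target, read 93.7 and 111 in NSB, 87.2 and 103 in St1, 183 and 168 in CNH and 252 and 217 in P-CNH. It rose from St1 to P-CNH by 1.64 log2 units (adjusted p 0.00247) and differed by 1.06 from NSB to CNH (adjusted p 0.0617). Ccnd2, a D-type cyclin, fell from St1 to P-CNH by 1.95 (adjusted p 0.00867). Trim71, which encodes the let-7 target LIN41, read 1977 to 2881 on the Batch 1 arrays of E8.5 and 763 to 1010.5 on those of E10.5, with a difference of -1.58 from NSB to CNH that did not pass (adjusted p 0.528).

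**Figure D2:**
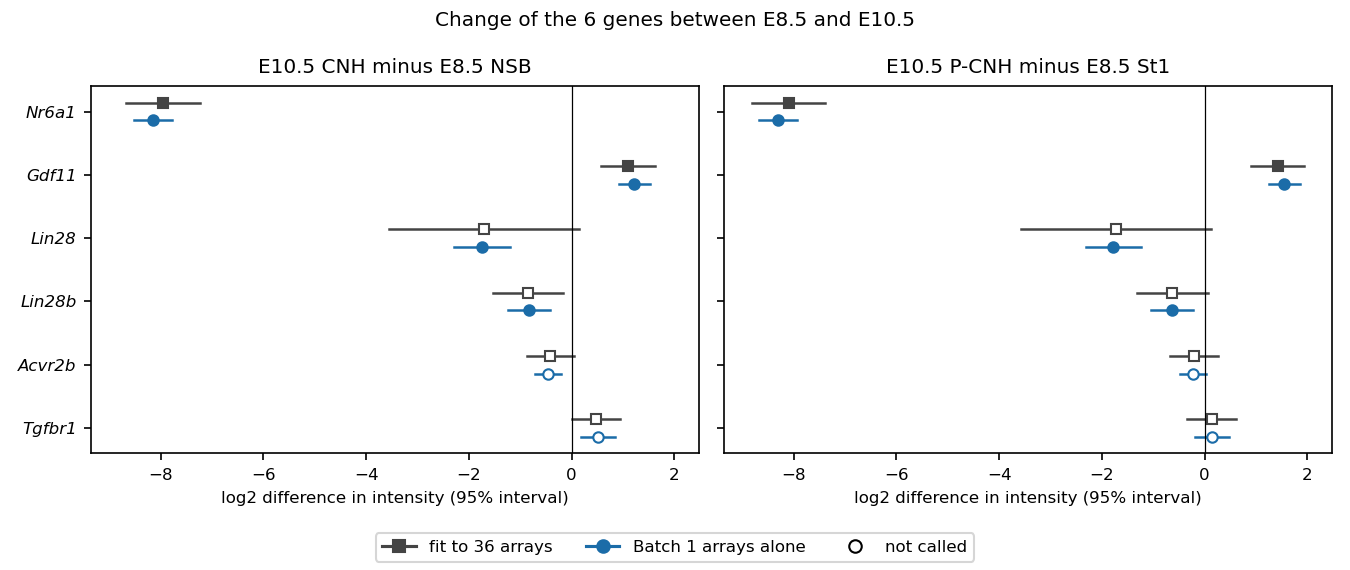
Log2 difference with its 95% interval for the 6 genes, E10.5 CNH minus NSB and E10.5 P-CNH minus St1, in the fit to all 36 arrays (squares) and to Batch 1 alone (circles), with open symbols where a gene was not called. Nr6a1 stands near -8 in each, Gdf11 above 0, and Lin28 and Lin28b are called with Batch 1 alone.

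Counted over the 6 genes, 2 were called from NSB to CNH (1 higher, 1 lower), where 7.14% of all probes were called, and 2 from St1 to P-CNH (7.07% of all probes). Stage against stage, 4 of 6 were called, with 14.4% of all probes; this was 2 of 6 without a batch term, with an offset of 100 and in the 5 leave-one-out fits that ended the Lin28b call. The median of the 6 differences was -0.63 from NSB to CNH (-0.01 over all probes). In the fits to Batch 1 alone 4 of 6 were called in each of the 3 comparisons, beside backgrounds of 20.1%, 21.7% and 19.3%. No member was called for a difference between the change from NSB to CNH and the change from St1 to P-CNH. The count was 0 of 6 by limma, with 0 at an unadjusted p under 0.05, beside 0.742% of all probes and 3.58% in Batch 1 alone. For Nr6a1, undetected on both P-CNH arrays, and Gdf11, undetected at E8.5 in Batch 1, background limits the changes. This comparison therefore does not measure how their changes differ.

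Between regions of the same stage, the counts of members called were near the background. Between E10.5 P-CNH and CNH, 0 of 6 were called by limma (0 at an unadjusted p under 0.05), beside 0.318% of all probes (2.62% in Batch 1 alone), and the differences ran from -0.25 for Tgfbr1 to 0.38 for Lin28b. With Batch 1 alone the Lin28 probe ILMN_2992814, which does not represent the gene, was called higher in P-CNH (0.66, adjusted p 0.0160), and no other probe of a member was called. That fit also called 4 of 4 notochord genes (median -3.88), the somite gene and 1 of 7 caudal progenitor genes lower in P-CNH. Their part in the difference of this probe was not tested. Between RN and the mean of NSB, St1 and St5, 0 of 6 were called (0 at an unadjusted p under 0.05; 2.47% of all probes; 7.25% in Batch 1 alone). Between St5 and the mean of RN, NSB and St1, 0 of 6 were called in the 36-array fit (1 at an unadjusted p under 0.05, Nr6a1; 6.72% of all probes). In this contrast Nr6a1 differed by -0.79 log2 units (SE 0.281, adjusted p 0.119), and in the fit to Batch 1 alone it fell by 0.92 (adjusted p 0.000445), the single member called there (14.0% of all probes). In the 36-array fit Nr6a1 was called in it without E13.5 CNH replicate 1 or without replicate 2 (-0.79 and adjusted p 0.0487 in each). The lateral plate markers, led by Tbx4, moved with St5: their summed deposited intensity was 5346 and 5191 there and 207 to 321 on the other E8.5 arrays of Batch 1. In the 36-array fit all 3 were called higher in St5, while 4 of 4 notochord genes (median -2.70), the somite gene and 2 of 7 caudal progenitor genes were called lower; with Batch 1 alone 3 of 5 surface ectoderm genes were higher too. The part of these tissues in the Nr6a1 difference was not tested.

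At E7.5 and E8.5 in Batches 2 and 3, Nr6a1 was high everywhere. It read 3770.2, 3333 and 16903 in E7.5 A, 2467 and 8806 in P, 9899 and 20238 in PP, and 3946, 6475 and 13576 in E8.5 CLE. No member was called between the posterior regions P and PP and the anterior region A (0 of 6 by limma, 1 at an unadjusted p under 0.05, beside 5.78% of all probes). Lin28 differed by -0.37 within Batch 2 (P against A, 2 arrays each). Within Batch 3 it differed by 2.29 (PP against A, 2 arrays against 1), so the region changes with the batch. From E7.5 P and PP to E8.5 CLE 2 of 6 were called, both higher, with 12.0% of all probes. Visceral endoderm markers moved with this comparison: all 7 were called lower (median -4.57), with sums of 4157 and 13807.5 in P and 59623 and 65254 in PP against 478, 608 and 823 in CLE, and their part in the differences of the members was not tested. Nr6a1 rose by 1.01 log2 units (adjusted p 0.0147), and the call was lost without E8.5 CLE replicate 1 (0.66, adjusted p 0.162) or E7.5 P replicate 2 (0.85, adjusted p 0.0662), and without both arrays with the fewest detected probes (0.76, adjusted p 0.0558).

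Lin28b rose in the same comparison by 0.81 (adjusted p 0.0405), a call lost in 12 of 36 leave-one-out fits, over which the difference ran from 0.70 to 0.99. Its deposited values in E7.5 P were 91.6 and 273, in PP 778 and 2005, and in CLE 81.6, 331 and 684, so the groups overlapped before normalisation. After normalisation Lin28b was higher in CLE by 1.13 within Batch 2 (1 array against 2 of P) and by 0.557 within Batch 3 (2 against 2 of PP). The arrays in the comparison that ended this Lin28b call were E8.5 CLE replicate 1 (0.72, adjusted p 0.148) and replicate 2 (0.70, 0.158), E7.5 P replicate 1 (0.86, 0.0526) and replicate 2 (0.76, 0.102), and E7.5 PP replicate 1 (0.85, 0.0753) and replicate 2 (0.77, 0.0953); the others were NSB and St1 replicates 1 and 2 and both E9.5 CNH arrays (0.81 in each, adjusted p at most 0.0507). With the replicate number as a block, Lin28b differed by 0.77 (adjusted p 0.0609). Lin28 differed by -0.99 (limma adjusted p 0.362) and would be called only without E8.5 CLE replicate 3 (-1.92, adjusted p 0.0384). Acvr2b differed by -0.57 (adjusted p 0.0339), under 1.5-fold, and passed without E8.5 CLE replicate 3 (-0.66, adjusted p 0.0187). In the fit without that array 4896 of all probes were called, against 2609 with all arrays. Acvr2b also passed without E7.5 P replicate 1 (-0.63) or E7.5 PP replicate 1 (-0.64).

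By E9.5 Nr6a1 had already dropped. It read 149 and 164 in E9.5 CNH and 139 and 247 in E9.5 P-CNH, all detected and all far below the 3 CLE arrays. Nr6a1 fell from CLE to E9.5 CNH by 6.18 log2 units (95% interval -6.88 to -5.48, limma adjusted p 2.13e-11), the second most negative of all probes; it was the 1 of 6 members called (8.89% of all probes). In this comparison 5 of 6 blood genes and 4 of 4 notochord genes were called higher. Within Batch 2, where 2 CNH arrays face 1 CLE array, the difference was -6.69. The E9.5 CNH and CLE arrays shared no BeadChip, so stage and BeadChip cannot be told apart here. No member was called between E9.5 P-CNH and CNH (0 of 6 by limma, 0 at an unadjusted p under 0.05, beside 0.170% of all probes).

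The representing Lin28 probe was still high at E9.5 and lower later. It read 1405 and 1792 in E9.5 CNH and 997 and 2668 in E9.5 P-CNH, against 293, 143 and 5577 in CLE, with a difference from CLE to E9.5 CNH of 0.67 (adjusted p 0.750). The other 3 Lin28 probes were lower in that comparison, down to -1.36, and from NSB to E9.5 CNH 2 of the 4 were lower and 2 higher (-0.82 to 0.93); none of these was called. At E11.5 it read 85.9, 94.8 and 125 in CNH and 93.2 and 282 in P-CNH, at E12.5 82.1 and 146, and at E13.5 72.8 and 74.1, where neither array detected it. Every E11.5, E12.5 and E13.5 CNH array thus lay below both E9.5 CNH arrays.

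From E9.5 to E11.5 CNH, 3 of 6 members were called, all lower, with 5.10% of all probes; 2 of 5 surface ectoderm genes and the somite gene were called higher there, and 1 of 7 caudal progenitor genes lower. Lin28 fell by 5.22 log2 units (SE 0.831, 95% interval -6.95 to -3.50, adjusted p 0.000393), the most negative difference of 21712 probes, and by 5.30 within Batch 2. The probe ILMN_2992814 fell by 3.46 (adjusted p 0.00186), while ILMN_2521653 (-1.77, adjusted p 0.157) and ILMN_2525870 (-1.31, adjusted p 0.366) did not pass. Lin28b read 132 and 166 in E9.5 CNH and 81.3, 71.3 and 165 in E11.5 CNH; it fell by 2.37 (SE 0.309, adjusted p 4.14e-05). Only the E11.5 array of 165, from Batch 3, detected the probe, so the size of this fall rests on background at E11.5. The deposited values overlapped across batches but not within Batch 2. No BeadChip held CNH arrays of both E9.5 and E11.5, within Batch 2 or outside it. Stage and BeadChip therefore cannot be told apart in this comparison. Nr6a1 read 90.7, 83.5 and 113 at E11.5, undetected on all 3 arrays, and fell by at least 2.12-fold (adjusted p 0.000663); with cyclic loess in place of quantile normalisation it was not called (-1.05, adjusted p 0.116). With the BeadChip as a random block the differences of Lin28 (-3.62, adjusted p 0.0714) and Lin28b (-2.18, adjusted p 0.158) did not pass, nor did that of Lin28b without a batch term (-1.76, adjusted p 0.283). All probes called from E9.5 to E11.5 CNH fell from 1107 to 200 with that block, and they also fell without E9.5 CNH replicate 2.

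**Figure D3:**
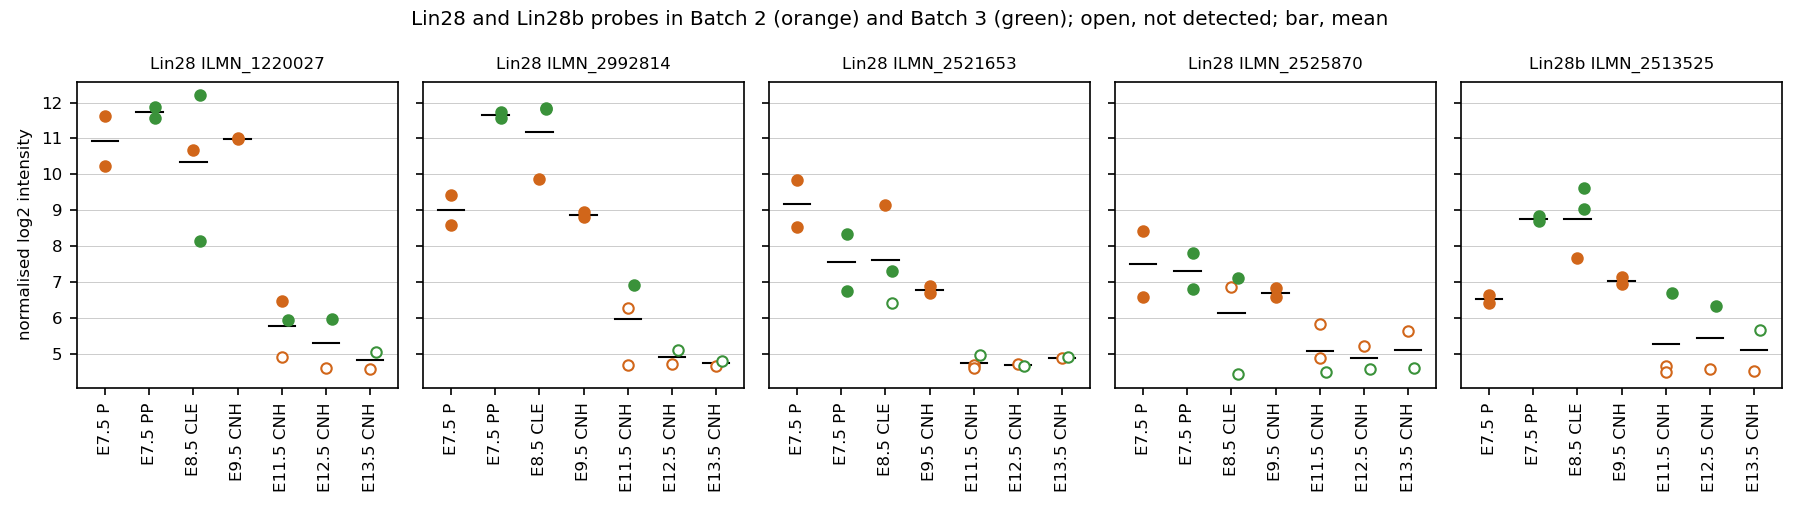
Normalised log2 intensity of the 4 Lin28 probes and of Lin28b on the arrays of Batches 2 and 3, from E7.5 P and PP through E8.5 CLE to the CNH of E9.5, E11.5, E12.5 and E13.5, with a bar at each mean. The representing Lin28 probe spreads from 8.13 to 12.20 over the 3 CLE arrays and drops by 5.22 between E9.5 and E11.5 CNH.

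At E13.5 the representing probes of both Lin28 genes were undetected, while Tgfbr1 (12.47 log2 units) and Acvr2b (11.88) were detected on both arrays. From E9.5 to E13.5 CNH, 2 of 6 were called, both lower, in a comparison that called 23.0% of all probes. This comparison too had no BeadChip in common between its stages. Tissue markers moved with it as well: 3 of 5 surface ectoderm genes and the somite gene were called higher, and 4 of 7 caudal progenitor genes lower. The surface ectoderm sums were 459 and 540 at E9.5 and 1537 and 1007 at E13.5, and the caudal progenitor sums 29677 and 36866 and then 7997 and 3034; their part in the differences of the members was not tested. Lin28 fell by at least 20.3-fold (adjusted p 5.42e-05), and Lin28b fell by at least 1.31-fold (adjusted p 3.76e-06; its arrays read 70.9 and 76.9 at E13.5), a call lost without a batch term (-1.95, adjusted p 0.0914). No member was called from E11.5 to E12.5 CNH (0 of 6 by limma, 0 at an unadjusted p under 0.05; 0.226% of all probes) or between E11.5 P-CNH and CNH (0 of 6, 1 at an unadjusted p under 0.05; 0.161% of all probes). Without E11.5 P-CNH replicate 2, which leaves 1 P-CNH array, the fitted differences for the latter were 1.55 for Nr6a1 and -0.86 for Gdf11. Gdf11 was undetected on every array then compared, so no fold is given for it. Nr6a1 was detected on both P-CNH arrays and on none of the 3 CNH arrays, and with both P-CNH arrays kept its difference, not called, was at least 1.35-fold.

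Nr6a1 alone was called from E12.5 to E13.5 CNH (1 of 6; 9.33% of all probes), with a rise of 1.23 log2 units (adjusted p 0.0304), in a comparison that also called 2 of 7 caudal progenitor genes and 1 of 4 notochord genes lower and 1 of 6 blood genes higher. The background of 9.33% was not stable. It stood for 2026 probes, against 555 when the batch term was dropped and 3482 under the BeadChip block. The count was lower without E12.5 CNH replicate 2 and higher without E13.5 CNH replicate 1, fits that each leave 1 array in a region. The deposited values of Nr6a1 did not rise: they were 112 and 137 at E12.5 and 91.8 and 90.6 at E13.5. The call was lost without E13.5 CNH replicate 2, the array with the fewest detected probes (0.59, adjusted p 0.473), without E12.5 CNH replicate 1 (1.35, 0.0629) and without E12.5 CNH replicate 2 (1.10, 0.307). Acvr2b differed by -0.54 from E12.5 to E13.5 and by -0.59 from E9.5 to E13.5, not called. Without E13.5 CNH replicate 1, which leaves 1 array of E13.5, these were -0.77 and -0.85. The second passed the threshold without E11.5 P-CNH replicate 1 or replicate 2 (-0.59 in each).

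Comparisons of E9.5 and E11.5 with Batch 1 pass through NSB replicate 3 alone, which read 3593 for Nr6a1, 469 for Lin28 and 180.1 for Lin28b. Nr6a1 fell from NSB to E9.5 CNH by 5.63 (adjusted p 1.80e-08), the 1 of 6 members called there (5.04% of all probes). Between E9.5 and E10.5 CNH 0 of 6 were called by limma (1 at an unadjusted p under 0.05; 0.0737% of all probes), with -2.33 for Nr6a1 (adjusted p 0.150), and between E10.5 and E11.5 CNH 0 of 6 (2 at an unadjusted p under 0.05; 0.0829%), with -2.93 for Lin28 (adjusted p 1.00). Without that array, Batch 1 and the later stages cannot be compared.

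Markers of other tissues changed with the stage as well. Of 6 blood genes, 3 rose from NSB to CNH and 3 from St1 to P-CNH (medians 3.94 and 3.27), beside 3.54% and 3.95% of all probes called higher, led by the embryonic globin Hbb-y, which rose at least 224-fold in the first. The summed deposited intensity of the blood markers in Batch 1 was 9101 and 4296 in RN, 4094 and 1924 in NSB, 4995 and 1403 in St1, and 3440.4 and 988 in St5, but 32713 and 30841 in CNH and 28371 and 21473 in P-CNH at E10.5. Visceral endoderm markers, led by Ttr, went the other way, with 2 of 7 lower from NSB to CNH and 4 of 7 from St1 to P-CNH (medians -0.75 and -1.46), beside 3.60% and 3.13% of all probes called lower; their sums ran from 949 to 3168 on the Batch 1 arrays of E8.5 and from 436 to 496 at E10.5, while the E8.5 arrays outside Batch 1 had sums from 478 to 824. At E9.5 the blood sums were 27259 and 33585 in CNH but 4963 and 3578 in P-CNH, while Nr6a1 read 149 and 164 in the first and 139 and 247 in the second. The part of blood or endoderm in the differences of the members was not tested.

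The markers of the progenitor tissue itself were present at both stages. All 7 caudal progenitor genes were detected in NSB replicates 1 and 2 and in E10.5 CNH, with sums of 34111 and 39228 and of 45707 and 41160; NSB replicate 3 detected 6 of them, with a sum of 15978. From NSB to CNH 1 of them rose (Fgf8, by 1.31) and 1 fell (Nkx1-2, by 1.84), and from St1 to P-CNH 1 fell (Nkx1-2, by 2.09). Of 4 notochord genes, 0 were called by limma in the first comparison, with 0 at an unadjusted p under 0.05, and 2 fell in the second, Shh and Foxa2. Of 5 surface ectoderm genes 0 were called in either, with 0 and 2 at an unadjusted p under 0.05. Of 4 somite genes 1 was tested, and it was not called; the 3 neural genes were detected on no array. Of 3 lateral plate genes 1 fell in each, Tbx4, at least 1.43-fold and 2.24-fold. These tissue counts are those of the 36-array fit. With Batch 1 alone, where 20.1% and 21.7% of all probes were called, 5 and then 4 blood genes were higher, 2 and then 3 notochord genes lower, and 3 and then 5 visceral endoderm genes lower, with 1 higher in the first; the caudal progenitor genes gave 2 higher and 1 lower, then 2 higher and 2 lower. From St1 to P-CNH that fit also called the somite gene lower and 1 surface ectoderm gene in each direction.

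Some genes known to act downstream of Gdf11 and Tgfbr1 in the tail region also rose. Of 7, 3 were higher and none lower in each of both comparisons in the 36-array fit (medians 0.15 and 0.11), beside 3.54% and 3.95% of all probes called higher. With Batch 1 alone 3 were higher in each, beside 2314 and 2462 of 21712 probes, and Isl1 was called lower from St1 to P-CNH (adjusted p 0.0421), where none of the 4 arrays detected it. Stage against stage Isl1 was called lower in the 36-array fit too, by at least 2.09-fold (adjusted p 3.58e-08). Hoxc10, a Hox gene of the lumbosacral region, read 212 and 238 in St5 and was undetected on the other 6 Batch 1 arrays of E8.5. At E10.5 it read 5511 and 4438 in CNH and 5962 and 5831 in P-CNH, at least 97.2-fold above NSB (adjusted p 1.07e-13) and at least 114-fold above St1. Hoxa11 rose at least 3.84-fold and 4.50-fold, and Cyp26a1, which encodes an enzyme that degrades retinoic acid, rose by 2.67 and 2.78 log2 units. Of the 4 group 13 Hox genes, which act at the end of the axis, 2 rose in each comparison (medians 1.89 and 1.81): Hoxc13 (at least 28.0-fold and 31.8-fold) and Hoxa13 (at least 2.86-fold and 3.41-fold); with Batch 1 alone 3 rose in each. Hoxc13 read 1539 and 1289.8 in CNH and 1813 and 1442 in P-CNH and was undetected on all E8.5 arrays of Batch 1.

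The same search was made for the other members over the 12 Batch 1 arrays. Their values of r depend on the size of the step between the stages, so they are not compared between members. For Lin28 the closest were 2300008H03Rik (r 0.978), Ubr7 (0.975) and Ldhc (0.973), and the most opposite Sema4g (-0.977), among 5325 probes. For Lin28b they were 1190007I07Rik (0.972), Thex1 (0.939) and Rex3 (0.935), with Ppfibp1 most opposite (-0.962). For Acvr2b they were 9630007E23Rik (0.953), Gigyf1 (0.937) and Prodh (0.934), with Ppp3ca most opposite (-0.952). For Tgfbr1 they were Unc84a (0.963), Gabarap (0.938) and Tmem129 (0.914), with LOC384836 most opposite (-0.937). Of these probes, Ldhc and 9630007E23Rik were undetected on all 4 arrays of E10.5, and 2300008H03Rik and Thex1 were detected on 1. Gdf11, detected on 4 of the 12 arrays, was under the minimum of 6 and was not searched.

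Ordered by mean normalised log2 intensity over the 16 regions, without adjustment for batch, the genes had different tops. Nr6a1 was highest in CLE (13.55), followed by St1 (13.36), NSB (13.29), RN (13.28), PP (12.61), St5 (12.55), P (12.37) and A (12.23). After a gap came E9.5 P-CNH (7.57), E9.5 CNH (7.17), E13.5 CNH (7.01), E11.5 P-CNH (6.51), E12.5 CNH (5.78), E10.5 CNH (5.43), E11.5 CNH (5.35) and E10.5 P-CNH (5.26). Of these 15 neighbouring pairs, 5 were clear of overlap between their arrays.

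Gdf11 was highest in E10.5 P-CNH (6.19) and E10.5 CNH (5.92) and lowest in E13.5 CNH (4.53), with 3 of 15 neighbouring pairs clear of overlap. No array detected it in 13 of the 16 regions, E13.5 CNH among them, so most of its order ranks background values. For Lin28 the order ran from St5 (11.93) to E13.5 CNH (4.81), and the only clear step was between E10.5 CNH (10.01) and E11.5 P-CNH (6.39). Lin28b ran from St1 (9.72) to E13.5 CNH (5.09), and its only clear step was between E7.5 P (6.53) and E12.5 CNH (5.44). The receptors had the narrowest ranges: Acvr2b from 13.40 in E7.5 P to 11.85 in E11.5 P-CNH, with 3 clear pairs, and Tgfbr1 from 12.57 in E12.5 CNH to 11.62 in CLE, with 1. The widest gap in the order of Nr6a1 thus separated the regions up to E8.5 from the later ones. Nr6a1 was called lower again from E9.5 to E11.5 CNH, where no E11.5 array detected it, a call lost with cyclic loess. Within Batch 1 the representing Lin28 probe was already lower at E10.5 than at E8.5. In the CNH series it was called lower from E9.5 to E11.5, as were 2 of the 4 Lin28 probes in all. With the BeadChip as a random block this call of the representing probe was lost.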

How the data were processed

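The authors scanned Illumina MouseWG-6 v2.0 BeadChips and deposited, for each of 45281 probes, a mean bead intensity on a linear scale, without background subtraction or normalisation, and a detection p-value. Their processing notes name lumi, without a version, and that step was not repeated. The deposited intensity was background corrected by normexp with an offset of 16, quantile normalised and taken to log2 with neqc of limma 3.58.1 (R 4.3.3), with negative controls inferred from the detection p-value. Probes detected (p below 0.01) on at least 1 array were tested (21712), and 23569 were left out. All 36 arrays entered 1 limma fit with the 16 regions and the batch as terms (18 residual degrees of freedom), with Benjamini-Hochberg adjustment within each contrast; Batch 1 was also fitted alone (6 degrees of freedom). Where all arrays of 1 group lacked detection, the fold is a lower bound from the background level. It compares mean values at the offset of 16, carries no sampling error and can change with the offset.

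The named-gene rule took every probe of the members, the genes of the pathway and marker lists, and the 3 most similar and 1 most opposite probes for each member; for each gene the probe with the highest mean represents it. The members and lists were chosen with earlier results of these data known. Alternatives were background, offset, normalisation, batch handling, filter, probe, replicate block and leaving out arrays. Figures were drawn with matplotlib 3.10.9 under Python 3.11.15.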

Additional observations from a re-analysis of the deposited data

Results flagged for a closer look

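In the fit to all 36 arrays, Nodal was the 1 gene called, among 103 named genes tested, for a difference between the change from NSB to E10.5 CNH and the change from St1 to E10.5 P-CNH (fitted difference of the log2 changes -2.85, limma adjusted p 3.66e-05; -2.67 with Batch 1 alone, adjusted p 2.87e-05). Nodal was undetected in P-CNH (67.9 and 66.2) and near background in CNH (102 and 86.7), so the fall from St1 (174 and 165) could be no larger than the distance to background, and the value does not measure how the changes differ. With Batch 1 alone, where 3.58% of all probes were called in this comparison beside 0.742% with 36 arrays, more named genes were called: among the GDF11 relatives 1 higher and 3 lower (Nodal included), among the notochord genes 2 higher and 1 lower, and among the Smad genes 1 lower. None of the 6 trunk-to-tail regulators was called in either fit. No region had 4 or more arrays, so no array was tested for lying apart from its group.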

How the results depend on the processing

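Over 19 contrasts and 6 genes there were 114 differences and 5424 values of them under the alternatives. Of these values, 5167 had the same sign and the same call, 67 lost a call, 39 gained 1, none reversed a called sign, and 151 changed sign without a call. Nr6a1 was called in every alternative and every leave-one-out fit from NSB to CNH (-8.15 to -6.40 over the alternatives), from St1 to P-CNH, over the stages and from CLE to E9.5 CNH. Unless stated, the cause of the changes below was not tested.

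Without background correction, Gdf11 from NSB to CNH was 0.54 and not called, which left 1 member called, and Lin28b over the stages was -0.58. With an offset of 100, Gdf11 was 0.36 from NSB to CNH, 0.50 from St1 to P-CNH and 0.44 over the stages, Lin28b over the stages was -0.58, and 1, 1 and 2 members were called. Without a batch term, Lin28 over the stages was -1.59 (adjusted p 0.0516), Lin28b -0.60 (0.602), 2 members were called over the stages, and Lin28b from E9.5 to E11.5 CNH was -1.76 (0.283). With the BeadChip as a random block (correlation 0.483), Lin28b over the stages was -0.58 (0.227), Lin28 from E9.5 to E11.5 was -3.62 (0.0714) and Lin28b -2.18 (0.158), leaving 1 member called. Without the detection filter, more probes entered the adjustment and Lin28 over the stages was -1.69 (0.0827). Lin28b by its other probe, ILMN_1217412, was -0.23 over the stages and -0.12 from E9.5 to E11.5, and Lin28 by ILMN_2521653 and ILMN_2525870 was -1.77 and -1.31 from E9.5 to E11.5. Leaving out both arrays with the fewest detected probes was chosen after seeing the data.

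Batch 1 alone called 4 members and 4361 probes from NSB to CNH, and 4 and 4704 from St1 to P-CNH, against 2 and 1550, and 2 and 1536, in the 36-array fit. The median standard error was 0.143 against 0.359. With Batch 1 alone, the normalisation as well as the fit was confined to these arrays. Of the probes called with 36 arrays, 1549 and 1536 were also called with Batch 1 alone.

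Batch 1 replicates share a BeadChip by number. Their deviations from the region means correlated by -0.08 to 0.39 (median 0.18), above 0.1 in 8 of 15 pairs of regions. Replicates of 1 number may thus share part of their deviation. The main fit did not take the numbers as pairs and leaves this part out. A replicate block left 111 of 114 differences with the same sign and call and ended 1 call, Lin28b from E7.5 P and PP to CLE (0.77, adjusted p 0.0609); it called 1597 and 1549 probes. Batch 1 alone with replicate block called 4 members and 4453 probes from NSB to CNH and 4 and 4787 from St1 to P-CNH.

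Leaving out 1 array at a time, Gdf11 from NSB to CNH ran from 1.05 to 1.14 (called in 34 of 36 fits), Lin28 over the stages from -1.81 to -1.58 (27 of 36) and Lin28b over the stages from -0.74 to -0.59 (31 of 36). The members called ran from 1 to 2 from NSB to CNH and from 2 to 4 over the stages, and all probes called from 919 to 1843 from NSB to CNH and from 816 to 1887 from St1 to P-CNH. A lone array left in a region is assumed to vary like the other regions. Without NSB replicate 3, contrasts between Batch 1 and the other batches could not be fitted.

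Gdf11 lies close to background, where the offset sets the size of a difference, and its values are limited by signal over background. Groups of 2 arrays, each a pool, limit the precision of every contrast.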
